A study of Mus musculus with 5 samples.

Results

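The genes described here act where a G protein-coupled receptor is switched off. They were 3 receptor kinases (Adrbk1, Adrbk2 and Grk6), 2 arrestins (Arrb1 and Arrb2) and 5 regulators of G protein signalling (Rgs1, Rgs2, Rgs3, Rgs10 and Rgs14), 10 of the 35976 genes with a row in the count tables. They were chosen by name with the difference between the genotypes in view, so their differences are given as a description, without p-values. How many of them passed the threshold of the fit across all genes is stated beside the share of all genes that did, and nothing is read from it. Adrbk1 and Adrbk2 are older symbols of Grk2 and Grk3. The RNA was that of mature thymocytes single-positive (SP) for CD8 and purified by cell sorting, T cells of the CD8 lineage close to leaving the thymus. Of the 5 libraries, 2 were Runx3 +/+ and 3 were Runx3 +/WRPW, heterozygous for an allele of the transcription factor gene Runx3 called WRPW. The age and strain of the mice, how the allele was made, and whether the libraries of a genotype came from separate animals are details not stated in the labels, so an SD measures only the spread between libraries.

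When a ligand binds such a receptor, the receptor loads GTP onto the alpha subunit of a heterotrimeric G protein, and the alpha and beta-gamma subunits separate and signal. G protein-coupled receptor kinases (GRKs) then phosphorylate the active receptor, and arrestins bind the phosphorylated tail, block further coupling and bring the receptor to clathrin-coated pits. RGS proteins act one step later, by speeding GTP hydrolysis on alpha subunits. In T cells these proteins tune migration toward chemokines and sphingosine-1-phosphate, and GRK2 (Adrbk1) is known to desensitise the receptor S1PR1.

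Total counts ran from 15715242 to 43758550. Runx3 +/WRPW library 2 stood apart, with a count at 27414 genes against 17237 to 18967 in each of the other 4 libraries. In it alone, 7350 genes had a count, at a median of 0.311 CPM. CPM are counts per megacount of the library total over the genes kept for testing. That total is scaled by TMM, which corrects it for composition. The labelled cell type had its markers. The 7 CD8 T cell markers with a row summed to 6093 to 6328 CPM in Runx3 +/+ and 5530 to 6286 CPM in Runx3 +/WRPW, and 0 of 7 passed the test in either direction (edgeR's quasi-likelihood test, Benjamini-Hochberg adjusted p under 0.05). By unadjusted p under 0.05, 1 of them was higher and 3 lower, and DESeq2 called 2 lower. Of markers of other cells, the myeloid gene Lyz2 was at no more than 0.280 CPM and the erythroid gene Hba-a1 at 0 counts throughout. Other genes of those 2 lists were higher, with the myeloid gene Cd68 at 4.25 to 5.60 CPM and the erythroid gene Alas2 at 0.374 to 0.686 CPM. The myeloid genes Csf1r and Fcgr3 were at 2.55 and 1.245 CPM in Runx3 +/WRPW library 2. Lists of B cell, myeloid and thymic stroma markers summed to 9.71 to 9.75, 5.88 to 6.35 and 149 to 188 CPM in Runx3 +/+, and to 3.04 to 5.36, 5.60 to 11.5 and 82.2 to 105 CPM in Runx3 +/WRPW. Regulatory T cell markers summed to 207 to 328 and 174 to 334 CPM, with Foxp3 and Ctla4 lower. Il2ra of that list went the other way without passing, at 3.78 and 3.96 CPM in Runx3 +/+ and 4.09 to 6.45 CPM in Runx3 +/WRPW. Natural killer markers summed to 192 to 210 and 145 to 190 CPM, double-positive thymocyte markers to 46.3 to 47.4 and 30.6 to 42.3 CPM, CD4 T cell markers to 39.0 to 55.6 and 28.7 to 34.7 CPM, and erythroid markers to no more than 0.846 CPM. Of the other lists, double-positive, B cell and thymic stroma had 1 gene lower each (Dntt, Cd79b and Pecam1). In the same lists, Arpp21, Epcam, Foxn1 and Col1a1 were highest in Runx3 +/WRPW library 2, at 12.4, 7.66, 4.67 and 4.30 CPM. Pdgfra, Ms4a1 and Pax5 were also highest there, and the remaining genes of these lists were not. A single gene gave most of some sums. Ikzf2, of the regulatory T cell list, was at 193.5 and 306 CPM in Runx3 +/+ and 167.5 to 329 CPM in Runx3 +/WRPW. Foxp3 was at 5.09 and 9.63 CPM against no more than 1.19 CPM. In the same order, Nkg7 of the natural killer list was at 189 and 206 against 144 to 187 CPM. Pecam1 of the stroma list was at 183 and 143 against 77.2 to 100 CPM. Gata3 of the CD4 T cell list was at 37.8 and 49.3 against 28.0 to 33.8 CPM. Cd4 itself was at 0.467 CPM in Runx3 +/+ library 1 and 5.36 CPM in library 2. It was at no more than 0.374 CPM in Runx3 +/WRPW. Mki67, a gene of dividing cells, was at 244 and 254 CPM in Runx3 +/+ and 30.4 to 33.0 CPM in Runx3 +/WRPW. The part of these shifts in the differences below was not tested. In bulk RNA, fewer cells that express a gene and less RNA of it per cell cannot be told apart.

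Promoter sequences were in the RefSeq table (GRCm38.p6) for 4 of the 10 genes, Rgs2, Rgs3, Rgs10 and Grk6, as 7 windows from 250 bases before to 50 after a transcript start. They were searched on both strands for TGTGGT and TGCGGT, the core forms of the site that Runx proteins bind. Rgs3 and Rgs2 are shown because Rgs3 was about 3-fold higher in Runx3 +/WRPW while Rgs2 overlapped between the genotypes. Both starts of Rgs3 are printed, upstream first, and capitals mark a match.
Rgs3, upstream start (chr4:62559597-62559896, plus strand): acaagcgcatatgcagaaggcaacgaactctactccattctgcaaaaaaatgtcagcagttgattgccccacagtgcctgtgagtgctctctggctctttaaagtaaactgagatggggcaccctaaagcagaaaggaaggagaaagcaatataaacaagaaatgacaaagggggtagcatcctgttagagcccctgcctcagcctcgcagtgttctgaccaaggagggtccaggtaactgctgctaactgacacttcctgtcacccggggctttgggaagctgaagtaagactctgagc
Rgs3, downstream start (chr4:62619422-62619721, plus strand): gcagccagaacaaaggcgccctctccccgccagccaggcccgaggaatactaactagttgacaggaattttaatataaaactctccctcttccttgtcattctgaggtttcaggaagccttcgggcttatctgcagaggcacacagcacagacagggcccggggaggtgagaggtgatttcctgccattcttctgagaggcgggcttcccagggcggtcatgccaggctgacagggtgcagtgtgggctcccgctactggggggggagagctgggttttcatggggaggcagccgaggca
Rgs2 (chr1:144004100-144004399, minus strand): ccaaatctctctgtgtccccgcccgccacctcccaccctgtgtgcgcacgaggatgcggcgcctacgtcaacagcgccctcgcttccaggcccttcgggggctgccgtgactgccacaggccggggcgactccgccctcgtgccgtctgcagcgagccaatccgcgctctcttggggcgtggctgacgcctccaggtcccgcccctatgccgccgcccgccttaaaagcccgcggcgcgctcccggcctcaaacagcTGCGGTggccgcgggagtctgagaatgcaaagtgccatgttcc
A single match, TGCGGT from base 258 of the Rgs2 window, just inside the transcript, was found in the 7 windows. Of all 32851 promoter windows in the table, 16.8% held TGTGGT, 6.45% TGCGGT and 22.4% either. A match is a string of letters and no match says only that these letters are not in these windows. GENCODE M21 lists 17 transcripts for Rgs3, and a count per gene does not show which start was used.

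Adrbk2 transcripts, nearly absent in Runx3 +/+, were present in Runx3 +/WRPW, while Adrbk1 and Grk6, which make up most of the kinase RNA, had somewhat smaller values there. Adrbk2 (chromosome 5, 112910478 to 113015660, mm10) encodes GRK3, which is recruited to the membrane by free beta-gamma subunits, as GRK2 is. It had 6 and 5 counts in the Runx3 +/+ libraries and 245, 133 and 153 counts in Runx3 +/WRPW libraries 1, 2 and 3. As TMM-scaled CPM these were 0.280 and 0.1998 against 5.60, 8.28 and 7.04. All 3 Runx3 +/WRPW libraries lay far above both others. The fitted log2 difference (Runx3 +/WRPW minus Runx3 +/+) was 4.84 ± 0.35 (SE), or 28.6-fold. The ratio of pooled counts, 531 against 11, was 28.0 with a 95% interval of 15.5 to 56.4 (exact conditional binomial), which covers counting error only.

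Library 2 gave the highest Adrbk2 level, and in that library RGS genes silent elsewhere also had counts. These were singled out after their values were seen. Rgs17 was at 3.80 CPM, Rgs6 at 3.24 CPM and Rgs22 at 2.18 CPM in library 2, against no more than 0.046 CPM in the other 4 libraries. Among the genes with counts only in library 2, the 95th percentile was 2.43 CPM. Without library 2 the log2 difference of Adrbk2 was 4.70, and across fits that left out 1 library it ranged from 4.60 to 5.05.

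Adrbk1 (chromosome 19, 4285999 to 4306222), the gene of GRK2, was at 801 and 821 CPM in Runx3 +/+ and at 719, 693 and 722 CPM in Runx3 +/WRPW. The genotypes did not overlap, but the log2 difference was only -0.19 ± 0.06 (SE). Grk6 (chromosome 13, 55445072 to 55460927), a kinase held at the membrane by lipid anchoring and abundant in lymphocytes, was at 630 and 596 CPM in Runx3 +/+. It was at 464, 499 and 456 CPM in Runx3 +/WRPW, below both of those, with a log2 difference of -0.37 ± 0.07.

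Arrb1 and Arrb2 encode the beta-arrestins, which bind many of the same receptors. Arrb1 (chromosome 7, 99535147 to 99606772) was at 104 and 104 CPM in Runx3 +/+ and at 156, 161 and 146 CPM in Runx3 +/WRPW, 1.48-fold higher (log2 difference 0.57 ± 0.06). Arrb2 (chromosome 11, 70432485 to 70440828) was at 296 and 310 CPM in Runx3 +/+ and at 247, 295 and 234 CPM in Runx3 +/WRPW (log2 difference -0.23 ± 0.11). The highest Runx3 +/WRPW value, from library 2, all but met the lower Runx3 +/+ value. Without library 2 the log2 difference of Arrb2 was -0.33. Mir7115, annotated inside Arrb2 on the same strand, had 78 and 159 counts of its own in Runx3 +/+ and 251, 96 and 92 in Runx3 +/WRPW.

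Of the RGS genes, 3 were higher, 1 was lower and 1 overlapped between the genotypes. Rgs1 (chromosome 1, 144244669 to 144249104), a brake on chemokine responses that activated lymphocytes express, was at 10.1 and 6.48 CPM in Runx3 +/+. In Runx3 +/WRPW it stood at 75.0, 64.2 and 48.9 CPM, 7.60-fold higher (log2 difference 2.93 ± 0.27). The lowest of these was still several times the higher Runx3 +/+ value. Rgs3 (chromosome 4, 62559835 to 62703019) encodes several isoforms that act on Gi and Gq alpha subunits. It was at 137 and 117 CPM in Runx3 +/+ and at 331, 350 and 446 CPM in Runx3 +/WRPW, 2.97-fold higher (log2 difference 1.57 ± 0.15). Rgs10 (chromosome 7, 128373621 to 128419506), a small RGS protein of immune cells and brain that acts on Gi alpha subunits, was at 142 and 110 CPM against 200, 179 and 193 CPM. That was 1.52-fold higher (log2 difference 0.60 ± 0.12), with the Runx3 +/+ libraries further apart from each other than for Rgs3 in proportion.

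Rgs14 (chromosome 13, 55369732 to 55384687), which combines an RGS domain with Ras-binding domains and a GoLoco motif that holds inactive Gi alpha, was the lower one. It was at 166 and 175 CPM in Runx3 +/+ and at 114, 112 and 117 CPM in Runx3 +/WRPW, 1.50-fold lower (log2 difference -0.58 ± 0.06). Rgs2 (chromosome 1, 143999338 to 144004149), which acts chiefly on Gq alpha, was at 24.1 and 29.7 CPM in Runx3 +/+ and at 29.9, 27.3 and 32.9 CPM in Runx3 +/WRPW. Its ranges overlapped, with a log2 difference of 0.16 ± 0.13, which was -0.02 without Runx3 +/+ library 1.

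**Figure D1:**
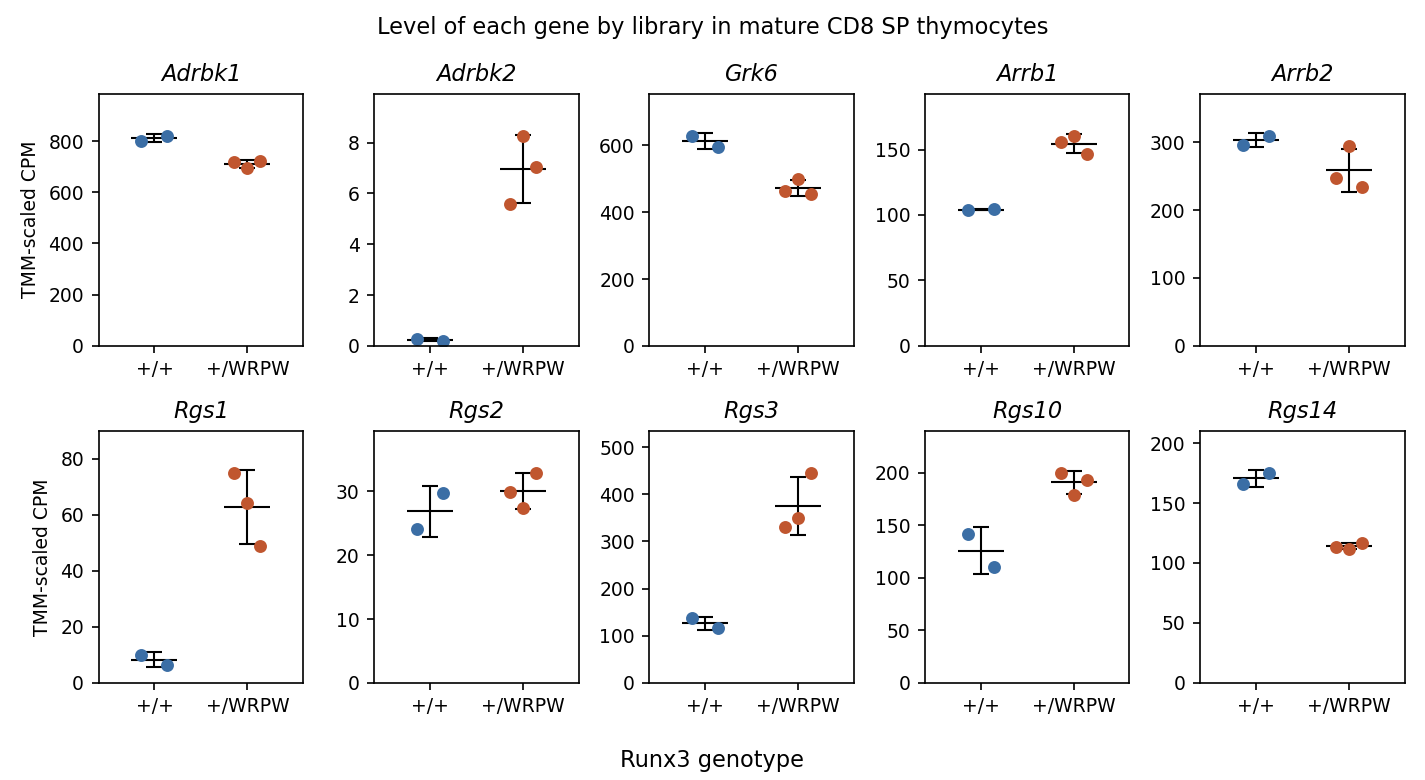
Level of each of the 10 genes in TMM-scaled CPM (vertical axis, from 0, scaled per gene) in the 2 Runx3 +/+ and 3 Runx3 +/WRPW libraries; points are libraries and bars the mean ± SD. Adrbk2, Rgs1 and Rgs3 stand clearly higher in every Runx3 +/WRPW library, Rgs14 and Grk6 lower, and Rgs2 overlaps.

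In the fit across all genes, 1855 of 13666 genes (13.6%) passed the threshold in either direction, 6.24% higher and 7.33% lower in Runx3 +/WRPW. All 10 genes passed the filter on low counts, and 7 passed the threshold. Adrbk2, Arrb1, Rgs1, Rgs3 and Rgs10 were higher, Grk6 and Rgs14 lower, and Adrbk1, Arrb2 and Rgs2 did not pass. The genotypes did not overlap for 9 of the 10, against 48.5% of all genes tested. Their median log2 difference was 0.36, against 0.02 over all genes tested. Since the genes were chosen with this contrast in view, nothing is read from these counts. Leaving out Runx3 +/+ library 1 left 3 that passed (Adrbk2, Rgs1 and Rgs14), and leaving out Runx3 +/+ library 2 left 1 (Adrbk2); in both fits the spread of the lone library was taken from the heterozygotes. Grk6 and Rgs10 dropped out in the absence of heterozygous library 1 or 3, which left 5, and Arrb2 was added in the absence of heterozygous library 2, which made 8.

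**Figure D2:**
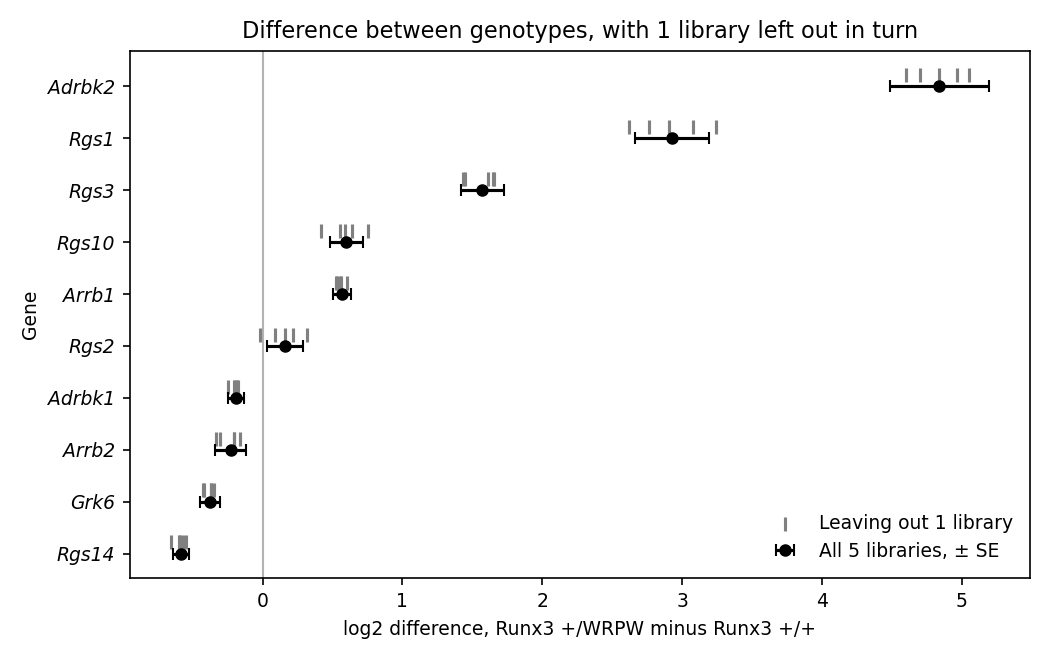
Log2 difference (horizontal axis, Runx3 +/WRPW minus Runx3 +/+) of each gene with all 5 libraries (points, bars are SE) and with 1 library left out in turn (grey ticks). Adrbk2 stays between 4.60 and 5.05, and Rgs2 is the gene whose ticks fall on both sides of 0.

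Pairs of these genes lie close together on a chromosome. Rgs2 and Rgs1 are 240.5 kb apart on chromosome 1, with Rgs13 as the protein-coding gene between them. Rgs1 was 7.60-fold higher, Rgs2 overlapped, and Rgs13 had a single count in all 5 libraries, in Runx3 +/WRPW library 2. Rgs14 and Grk6, 60.4 kb apart on chromosome 13, were both lower. Of the 3 protein-coding genes between them, Slc34a1 and Pfn3 had counts in library 2 alone, and F12 was at 1.73 and 1.28 CPM in Runx3 +/+ and 0.640 to 0.872 CPM in Runx3 +/WRPW.

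Levels of different genes can be compared only per length, here as CPM per kilobase of all annotated exons. In Runx3 +/+ the order was Adrbk1 (181 ± 3.24, SD, n = 2), Grk6 (146 ± 5.76), Arrb2 (106 ± 3.64), Rgs10 (73.5 ± 13.04), Rgs14 (40.2 ± 1.59), Rgs3 (11.7 ± 1.32), Arrb1 (9.32 ± 0.036), Rgs2 (7.42 ± 1.11), Rgs1 (1.20 ± 0.373) and Adrbk2 (0.0276 ± 0.00654). No neighbours in that order overlapped between libraries. In Runx3 +/WRPW the order was Adrbk1 (159 ± 3.54, SD, n = 3), Grk6 (113 ± 5.50), Rgs10 (111 ± 6.29), Arrb2 (90.9 ± 11.2), Rgs3 (34.8 ± 5.68), Rgs14 (26.9 ± 0.570), Arrb1 (13.8 ± 0.649), Rgs1 (9.02 ± 1.89), Rgs2 (8.29 ± 0.773) and Adrbk2 (0.802 ± 0.154). There Grk6 and Rgs10 overlapped, and so did Rgs1 and Rgs2. Adrbk2 was thus the least abundant of the 10 in both genotypes. With the length of the longest transcript in place of all exons, the order in Runx3 +/+ was the same, and in Runx3 +/WRPW Rgs10 took rank 1, ahead of Adrbk1.

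**Figure D3:**
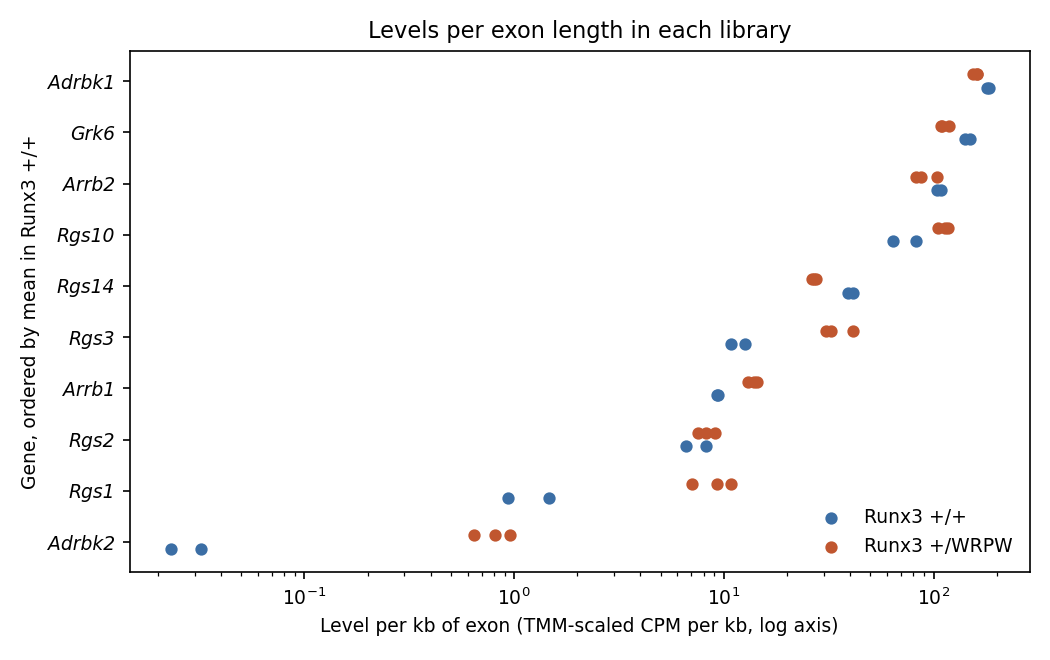
Level per kilobase of annotated exon (horizontal log axis, TMM-scaled CPM per kb) of each gene in each library, ordered by the mean in Runx3 +/+. Adrbk2 is lowest in both genotypes, at 0.0276 and 0.802 on average, and Rgs3 passes Rgs14 in Runx3 +/WRPW.

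On that scale the described members of each family could be compared within a library. The sums cover only those members and leave out expressed relatives. Examples are Rgs19, at 127 and 125 CPM in Runx3 +/+, and Rgs11, at 154 and 85.6 CPM. Adrbk1 exceeded Adrbk2 by 5550-fold and 7981-fold in the Runx3 +/+ libraries and by 249-fold, 163-fold and 199-fold in Runx3 +/WRPW libraries 1, 2 and 3. The Runx3 +/+ ratios rest on 6 and 5 counts of Adrbk2. The summed level of the 3 kinases was 329 and 325 in Runx3 +/+ and 272, 275 and 271 in Runx3 +/WRPW, so the total was lower although Adrbk2 was higher. Arrb2 exceeded Arrb1 by 11.2-fold and 11.7-fold in Runx3 +/+ and by 6.24-fold, 7.20-fold and 6.28-fold in Runx3 +/WRPW. The summed level of the arrestins overlapped, at 113 and 118 against 101, 118 and 95.4. The summed level of the 5 RGS genes was 143 and 126 in Runx3 +/+ and 193, 180 and 198 in Runx3 +/WRPW. Rgs3 stood below Rgs14 in Runx3 +/+, at 0.324 and 0.261 of its level, and above it in Runx3 +/WRPW, at 1.14, 1.23 and 1.50 times.

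The genes whose pattern over the 5 libraries was most like that of Adrbk2 were Samd3, Ccr8, Cxcr5, Lrig3 and Ctsf. Likeness was the root mean square difference in log2 CPM after each gene was centred on its own mean, which was 0.31, 0.37, 0.40, 0.42 and 0.42. Ccr8 and Cxcr5 encode chemokine receptors. Cxcr5 was at 0.934 and 0.999 CPM in Runx3 +/+ and at 18.5, 28.3 and 12.3 CPM in Runx3 +/WRPW. Lrig3 and Ctsf had at most 3 counts in a Runx3 +/+ library.

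The other lists, given from here on, were also chosen with earlier results of these data known. Their counts and adjusted p-values are thus a description, and nothing is read from them. Of 27 other genes of the same 3 families, 14 were abundant enough to test. Of these, 1 was higher, 1 lower and 12 did not pass, beside the 13.6% of all genes that passed. Their median log2 difference was -0.05, against 0.02 over all genes tested. The alpha-arrestin gene Arrdc4, whose product helps to sort membrane proteins, was at 54.3 and 33.1 CPM in Runx3 +/+ and at 160, 166 and 127 CPM in Runx3 +/WRPW, 3.46-fold higher (edgeR adjusted p = 0.00738). Arrdc3, of the same subfamily, was 1.58-fold lower (30.0 ± 4.35, SD, n = 2, against 19.0 ± 2.10 CPM, n = 3; edgeR adjusted p = 0.0309). The kinase genes Grk4 and Grk5 had log2 differences of -0.15 ± 0.17 and 0.05 ± 0.14 (SE). Rgs16, a target of activation signals in T cells, was at 8.50 and 5.84 against 7.50, 8.78 and 5.24 CPM, and Rgs19 had a log2 difference of -0.05 ± 0.05. Grk4, Grk5, Rgs16 and Rgs19 were singled out after their values were seen, as were Rgs9, Rgs12, Sag and Rgs11, with larger differences that did not pass. The log2 differences of Rgs9 and Rgs12 were -1.99 ± 0.72 and -1.05 ± 0.33 (SE), without overlap between the genotypes. Rgs9 was at no more than 0.654 CPM. Sag and Rgs11 overlapped, with log2 differences of 0.99 ± 0.52 and 0.50 ± 0.26. Arrdc4 alone passed when Runx3 +/+ library 1 or any heterozygous library was left out (1 in each fit). Leaving out Runx3 +/+ library 2 gave 0 in edgeR, with 2 at an unadjusted p under 0.05, and DESeq2 on all libraries called 3.

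The G protein subunits and their regulators held 26 tested genes of 39, with 1 higher, 6 lower, 19 not passing and a median log2 difference of 0.01. Of all genes tested, 6.24% were higher and 7.33% lower. Gna12, an alpha subunit gene, was 1.82-fold higher (18.7 ± 1.20 to 33.9 ± 4.02 CPM; edgeR adjusted p = 0.0107). Gpsm2, which like Rgs14 holds Gi alpha through GoLoco motifs and also orients the mitotic spindle, was 3.06-fold lower (19.4 ± 2.50 to 6.34 ± 0.553 CPM; edgeR adjusted p = 0.00216). The gamma subunit genes Gng2 and Gng12 were 2.99-fold and 2.33-fold lower (edgeR adjusted p = 0.0344 and 0.0168), and Ric8b, a chaperone of alpha subunits, was 1.29-fold lower (edgeR adjusted p = 0.015). Gnai2, the main Gi alpha subunit of lymphocytes, and Gnao1, another alpha subunit, were named after their values were seen. Gnai2 was at 645 and 693 CPM in Runx3 +/+ and at 538, 497 and 520 CPM in Runx3 +/WRPW (edgeR adjusted p = 0.0229). Gnao1 had the largest log2 difference of the list, 4.65 ± 2.00 (SE), from 6.48 CPM in library 2 and no more than 0.506 CPM elsewhere, and did not pass. Leaving out Runx3 +/+ library 1 or 2 left 2 and 1 that passed, and leaving out heterozygous library 1 or 3 left 3 and 4.

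Of 36 lymphocyte receptor genes tested (55 listed), 9 were higher, 7 lower and 20 did not pass, beside the 13.6% of all genes that passed. This list too was chosen with earlier results known, so its count is not read as a result. Their median log2 difference was 0.06. Among the higher ones, the oxysterol receptor gene Gpr183 went from 8.64 and 2.92 CPM in Runx3 +/+ to 59.2, 62.5 and 50.3 CPM in Runx3 +/WRPW (10.0-fold; edgeR adjusted p = 0.00645). Leaving out Runx3 +/+ library 1 moved the log2 difference of Gpr183 from 3.33 to 4.26, and leaving out the other Runx3 +/+ library moved it to 2.72. Ccr8, Cxcr5 and Cxcr3 were 21.6-fold, 20.2-fold and 12.3-fold higher. Without Runx3 +/+ library 1 or 2, the log2 difference was 4.87 and 4.05 for Ccr8, 4.24 and 4.37 for Cxcr5, and 3.22 and 4.13 for Cxcr3. Among the lower ones, S1pr1 was 12.8-fold lower, from 276 and 358 CPM to 29.9, 25.7 and 18.5 CPM (edgeR adjusted p = 0.00089). The chemokine receptor gene Ccr4, the adenosine receptor gene Adora2a and the cannabinoid receptor gene Cnr2 were 3.48-fold, 3.04-fold and 2.01-fold lower (edgeR adjusted p = 0.0363, 0.0288 and 0.0172). With Runx3 +/+ library 1 or 2 left out, 5 and 4 passed, and with heterozygous library 1 left out, 9 passed.

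Effectors downstream of G proteins had 6 higher, 5 lower and 25 not passing of 36 tested (43 listed), beside 13.6% passing of all genes. Their median log2 difference was -0.10. Adcy6, an adenylyl cyclase that makes cAMP, was at 315 and 367 CPM in Runx3 +/+ and at 161, 167 and 173 CPM in Runx3 +/WRPW, 2.04-fold lower (edgeR adjusted p = 0.0019). Prkar2a, a regulatory subunit of the cAMP-dependent kinase, was 2.22-fold higher (20.4 ± 1.20 to 45.2 ± 1.57 CPM; edgeR adjusted p = 0.00138). The cAMP phosphodiesterase genes Pde4a and Pde8a were 3.78-fold and 1.75-fold higher, and Plcb3, a phospholipase C, 1.82-fold higher (edgeR adjusted p = 0.0381, 0.0409 and 0.0252). Pde4a was at 3.04 and 1.24 CPM in Runx3 +/+ and at 5.76, 9.22 and 9.25 CPM in Runx3 +/WRPW. Dropping Runx3 +/+ library 1 moved the log2 difference of Pde4a from 1.92 to 2.66, leaving out Runx3 +/+ library 2 moved it to 1.40, and it did not pass when any 1 library was left out. Arhgef1, an exchange factor with its own RGS domain, was 1.32-fold lower, Arhgef11, of the same group, 1.27-fold lower, and the GTPase gene Rac2 1.26-fold lower (edgeR adjusted p = 0.0143, 0.0463 and 0.0191). Arhgef1, Arhgef11 and Rac2 did not pass when heterozygous library 1 or 3 was left out. Arhgef11 did not pass without heterozygous library 2 either. Of the effectors, 3 and 2 passed once Runx3 +/+ library 1 or 2 was left out, and 3 once heterozygous library 1 or 3 was.

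The machinery that takes arrestin-bound receptors into the cell and sorts them had 29 tested genes of 31, with 0 higher and 1 lower. That stands beside 13.6% passing of all genes, and the median log2 difference was -0.02. Usp33, a deubiquitinase of beta-arrestin, was the lower one, at 70.7 ± 1.22 CPM (SD, n = 2) against 52.5 ± 3.74 CPM (n = 3; 1.34-fold, edgeR adjusted p = 0.0197). By unadjusted p under 0.05, edgeR had 1 higher and 5 lower, and DESeq2 called 2 higher and 3 lower. In edgeR 0 passed when Runx3 +/+ library 1 or 2 was left out, with 4 and 2 at an unadjusted p under 0.05, and 0 when heterozygous library 3 was, with 4.

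**Figure D4:**
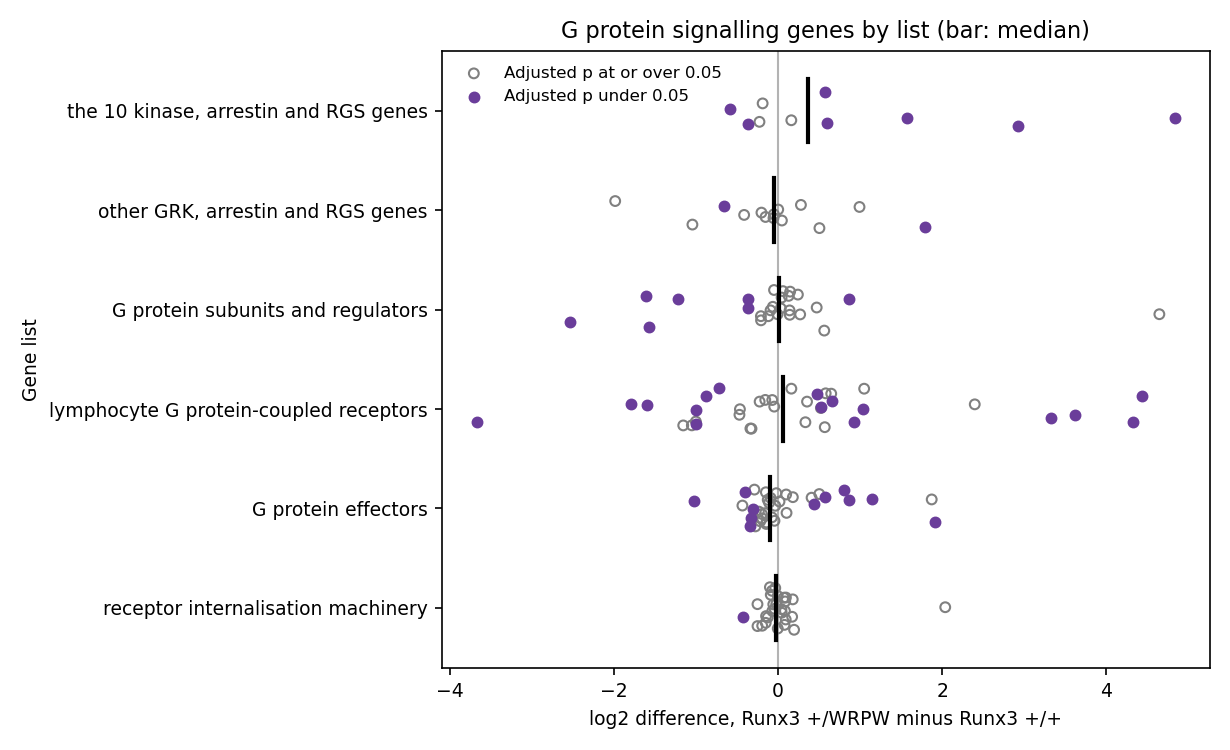
Log2 difference (horizontal axis, Runx3 +/WRPW minus Runx3 +/+) of every tested gene in the 10 described genes and the 5 other lists of G protein signalling; filled points passed an adjusted p under 0.05 in edgeR and black bars are list medians. The medians of the other lists lie between -0.10 and 0.06, and the receptor list holds the widest spread among genes that passed, from -3.67 to 4.43.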

How the data were processed

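Bulk RNA-seq of 5 libraries of FACS-sorted mature CD8 SP thymocytes was analysed, grouped by the genotype label into Runx3 +/+ (n = 2) and Runx3 +/WRPW (n = 3). The authors deposited whole-number read counts, 1 table of gene symbols for each library, with no normalization. Tools named in the submitters' processing notes are HISAT2 2.2.1, featureCounts 2.0.8, cutadapt 4.0 and edgeR 3.36.0, with the build mm10. Their settings, annotation and strand option are not stated there, so reads from overlapping antisense genes could not be told apart (Rgs3 and Arrb1 have an annotated one in GENCODE M21). Inside the deposited tables, Runx3 +/+ library 2 is headed with the number 3 and heterozygous library 2 with no sample name; GEO's sample records set the assignment. No replicate pair agreed within sampling noise (chi-square per gene of at least 10.9).

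The test was edgeR 4.0.16 under R 4.3.3 (TMM factors 0.981 to 1.034, a filterByExpr minimum of 10 counts, glmQLFit, glmQLFTest, Benjamini-Hochberg over 13666 genes, threshold 0.05). The SE is the absolute log2 difference over the square root of F. Log2 CPM used a prior count of 2. A floor of 3 counts corresponds to 0.0686 to 0.191 CPM of the full library total, without TMM scaling. These floors and the intervals reflect counting error alone, as the reads have no molecular identifiers. Exon lengths came from GENCODE M21 and coordinates and promoters from RefSeq GRCm38.p6 (mm10), with all 10 genes matched.

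The 10 genes, the other lists and the markers were chosen with earlier results of these data known. Beyond the 10 genes, those named are up to 4 called genes per list and direction by size, leaving out those whose mean log2 CPM was below 0, and the 5 genes most like the one with the largest difference; markers, Mki67, genes that lie between or overlap the genes described, and those the text says were named after their values were seen are outside this rule. Alternatives were RLE factors, DESeq2 1.42.0, no low-count filter, 1 CPM in every library of a genotype, the replicate number as a block, each library left out in turn and, for levels per length, the longest transcript.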

Additional observations from a re-analysis of the deposited data

How the results depend on the processing

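The direction of 9 of the 10 genes was the same in all 10 alternatives that gave a value, and Rgs2 ranged from -0.018 without Runx3 +/+ library 1 to 0.32 without library 2. The median log2 difference over all genes was 0.02 with all libraries, and 0.14 and 0.15 without Runx3 +/+ library 1 or 2. It was 0.70 without the filter and 0.71 in DESeq2, both over the 28583 genes with a count. The filtering within DESeq2 can leave some of these genes without an adjusted p. Adrbk2 passed in all 10, at log2 differences from 4.60 to 5.05; Grk6 lost its pass in 6 and Rgs10 in 5. With no low-count filter, which tests 28583 genes, 1079 genes passed in all and 3 effectors. DESeq2 called 3441 genes in all, 17 effectors and 5 internalisation genes, and added Adrbk1 to the genes passing; with the 1 CPM filter 2 internalisation genes passed. RLE factors changed no call among the 10 genes and the 24 others named by the rule for the lists, and gave 1818 genes in all.

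The labels number replicates 1 and 2 in both genotypes, which nothing in them ties to a shared day or animal. Deviations of same-numbered libraries correlated at -0.0492 and 0.00244. With only 2 Runx3 +/+ libraries centred on their mean, their deviations mirror each other. The differently numbered pairs of libraries 1 and 2 thus gave 0.0492 and -0.00244, and these values cannot settle whether libraries were paired. With the replicate block, 754 genes passed in all, 1 other kinase, arrestin or RGS gene, 3 subunits or regulators, 3 effectors and 0 internalisation genes in edgeR (3 at an unadjusted p under 0.05, 5 called by DESeq2 without the block), and Grk6 was the one gene of the 10 lost. That fit has fewer residual degrees of freedom. Replicate 3 occurs only in Runx3 +/WRPW, so in that fit its library added nothing to the genotype difference. The estimates were close to those without that library, with Adrbk2 at 4.815 against 4.833 and Rgs3 at 1.432 against 1.43.

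Leaving out 1 library in turn gave 277 to 1431 genes in all, 1 to 8 of the 10 genes, 0 to 1 of the other family members, 1 to 7 subunits or regulators, 4 to 15 receptors, 2 to 9 effectors and 0 to 1 internalisation genes. Of those 34 genes, 20 and 23 no longer passed without Runx3 +/+ library 1 or 2, and 13, 4 and 13 without Runx3 +/WRPW library 1, 2 or 3. Each of these fits had fewer samples, and the low-count filter kept a different set of genes. It kept 18369 and 18169 genes without Runx3 +/+ library 1 or 2, against 13666 with all libraries. The cause of these shifts was not tested. With 11 Adrbk2 counts in Runx3 +/+, depth limits its fold more than its direction.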
